A study of Rattus norvegicus with 6 samples.

Results

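The 40 genes described here encode the transcription factor MYC and proteins that build ribosomes in the nucleolus. They were chosen by gene symbol, with earlier results of these data known. Of the 40, 38 stood in the deposited count table under that symbol, among 37209 symbols in all. The other 2 were found through a RefSeq gene table, Utp4 under its older symbol Cirh1a and Wdr36 under its gene number as LOC688637. Ribosome production starts in the nucleolus, where RNA polymerase I transcribes the long precursor of the ribosomal RNAs. Small nucleolar RNAs bound to proteins (snoRNPs) guide chemical modification of this precursor, and large assemblies of processing factors cut and fold it into the small and the large ribosomal subunit. MYC, which binds DNA together with its partner MAX at the sequence CACGTG (the E-box), is known as an activator of genes at every stage of this pathway in growing cells.

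RNA was sequenced from primary bone marrow mesenchymal stem cells (BMSCs) of rat femur, stromal cells that can form bone, cartilage and fat, with the genotype given as WT. In 3 libraries the cells had received 3% cigarette smoke extract (CSE), a liquid that holds the soluble part of the smoke, for 6 h, and in 3 control libraries they had received serum-free medium for 6 h. No source used here says in which medium the extract was diluted, or what the strain and age of the rats were. The labels name no separate culture or animal for each library, and the p-values below therefore reflect library-to-library spread alone, which can be technical.

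Library totals lay between 19433637 and 22589327 counts with CSE and between 15958621 and 18651194 in the control. Of 6 stromal marker genes all were detected, with summed levels of 5421 to 5492 counts per 1000000 raw counts with CSE and 4935 to 5234 in the control. Its members differed in direction, as Cd44 lay between 790 and 847 with CSE and between 425 and 453 in the control, Pdgfrb between 185 and 206 with CSE and between 397 and 410.0 in the control, and Nt5e between 3.19 and 4.58 with CSE and between 7.08 and 9.15 in the control. All 4 macrophage markers were detected too, at summed levels of 235 to 251 with CSE and 298 to 303 in the control. Of the blood cell markers, Ptprc lay between 45.2 and 47.2 with CSE and between 64.3 and 68.7 in the control, Cd34 lay between 0.578 and 0.772 with CSE and between 0.735 and 1.61 in the control, and Cd3e had no count in any library. The 3 endothelial markers summed to between 0.206 and 0.398 with CSE and between 0.697 and 1.00 in the control. Their part in the results was not tested, and fewer cells of a type and less RNA per cell cannot be told apart in these samples.

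Most of the genes of ribosome production were higher in CSE-treated cells after 6 h. Of the 39 members that passed the filter on low counts, 34 rose, 2 fell (Bop1 and Nat10) and 3 did not pass the test (Fbl, Nop10 and Tsr1), by edgeR's quasi-likelihood test with p adjusted over all 13390 tested genes. Over all tested genes 73.9% were called by the same rule, 36.3% higher and 37.5% lower. In 33 tested members every CSE library lay above every control library and in 2 every CSE library lay below, against 37.2% and 38.6% of all tested genes. The rise was at least 2-fold in 6 members (Myc, Gnl3, Wdr43, Ubtf, Rrp12 and Wdr3), and 10.7% of all tested genes were called with a rise of that size.

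The median log2 fold change of CSE over control was 0.61 over the tested members and −0.017 over all tested genes. The summed level of the 40 members was 5164, 5184 and 5156 counts per 1000000 counts (CPM) in the CSE libraries, against 3347, 3162 and 3228 CPM in the control libraries. CPM values here and below are scaled with TMM factors, which correct library sizes for composition. The groups did not overlap, and as a share of raw counts the members held 0.484% ± 0.0047 with CSE, against 0.346% ± 0.0089 in the control (SD, n = 3 each). Scaling by total counts alone shifted the median of all tested genes by −0.19, and upper-quartile scaling shifted it by −0.14. Relative to the median of all tested genes the members' median stood 0.63 higher under each of these scalings. Under total counts alone 27 of the 34 members that rose were still called, beside 28.0% of all tested genes called higher, and among all called genes the share of higher ones was 37.2% in place of 49.2%.

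**Figure D1:**
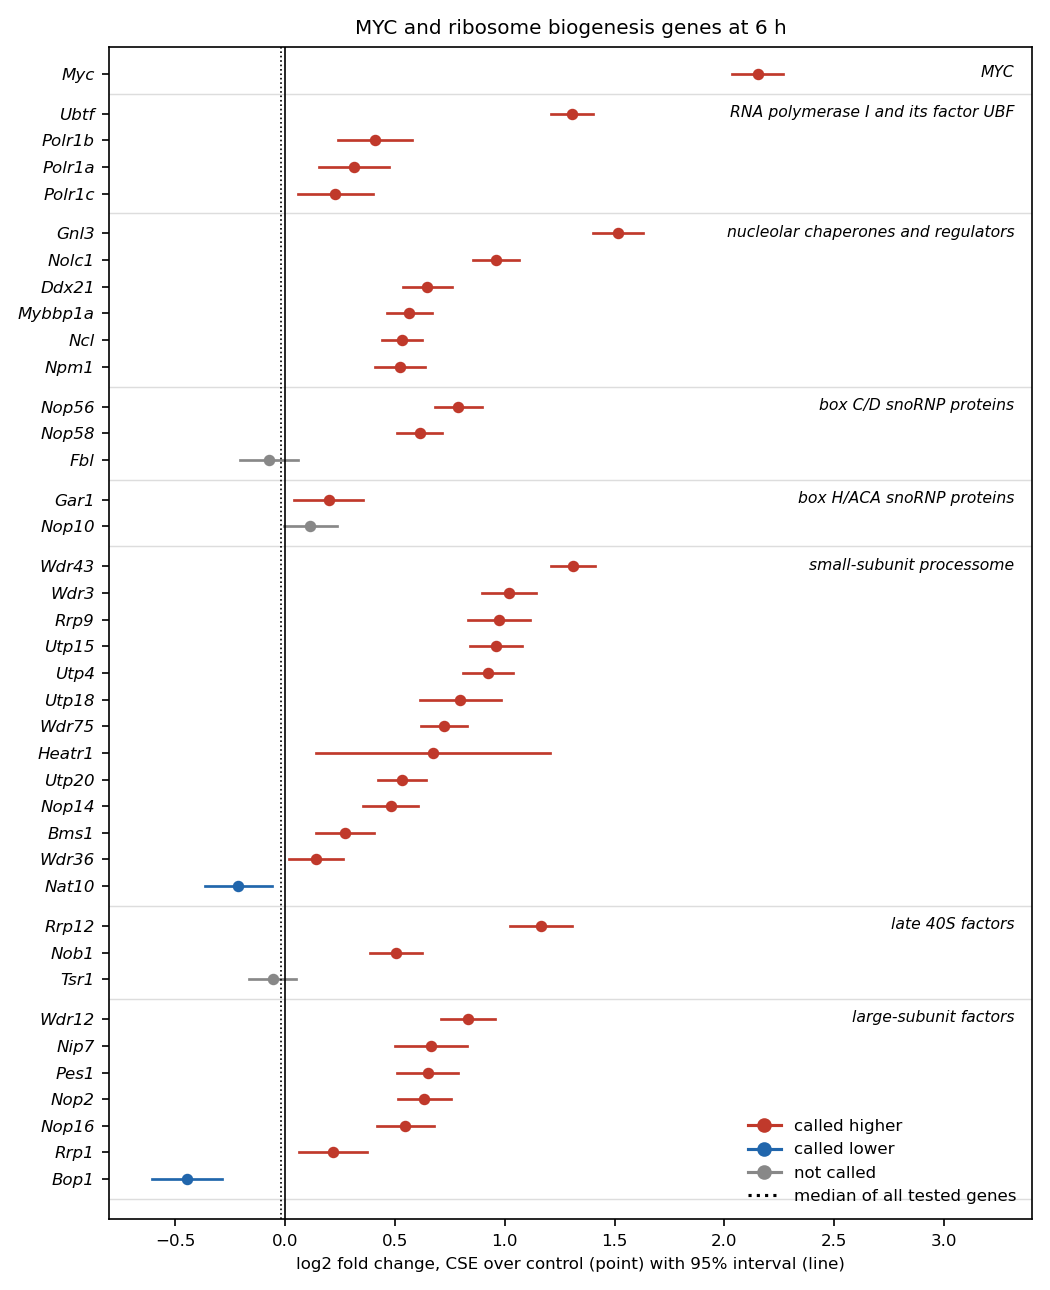
Log2 fold change of CSE over control for the 39 tested members, grouped by role, with points for the estimate and lines for its 95% interval from edgeR's quasi-likelihood fit, and a dotted line at the median of all tested genes (−0.017). Myc lies farthest to the right at 2.15, and Bop1 and Nat10 are the members called lower.

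Myc, whose protein drives growth and proliferation genes and whose mRNA is short-lived, had 168, 167 and 156 CPM in the CSE libraries, against 36.3, 36.4 and 37.5 CPM in the control libraries. The groups lay far apart, and each was tight within itself. Myc rose 4.44-fold, with a log2 fold change of 2.15 ± 0.05 (SE, edgeR adjusted p = 9.0e-16), and 3.37% of all tested genes had a higher one. Max, the obligate partner of MYC, had 76.2, 75.2 and 69.3 CPM with CSE, against 71.6, 69.7 and 71.2 CPM in the control, so the groups overlapped. Its log2 fold change was 0.055, with a 95% interval of −0.061 to 0.17 (edgeR adjusted p = 0.379), and it turned to −0.082 under upper-quartile scaling and to −0.13 under total counts alone, where Max was called lower (edgeR adjusted p = 0.0379).

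The other proteins that pair with MAX or act with MYC were divided. Of 18 listed genes of this network 16 were tested, of which 8 rose, 5 fell and 3 missed the threshold (median log2 fold change 0.15). The shares over all tested genes were 36.3% higher and 37.5% lower. Mga, whose protein pairs with MAX and represses E-box genes, rose to 186 ± 17.0 CPM with CSE, against 73.0 ± 1.03 CPM in the control. Mnt, another MAX partner that opposes MYC, rose to 41.7 ± 1.19 CPM with CSE, against 19.7 ± 0.624 CPM in the control. The MAX dimerization repressor genes were split. Mxd1 and Mxi1 rose by 1.23 and 0.31 on the log2 scale (edgeR adjusted p = 7.0e-08 and 0.0096), while Mxd4 and Mxd3 fell. Mxd4 fell to 55.2 ± 2.36 CPM with CSE, against 93.9 ± 3.46 CPM in the control, and Mxd3 fell to 1.08 ± 0.255 CPM, against 4.38 ± 0.399 CPM. The edgeR adjusted p of Mga, Mnt, Mxd4 and Mxd3 was at most 5.1e-07.

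The E-box was searched in the promoters that RefSeq sequences of the rat assembly GRCr8 give for 37 of the 40 members, in windows from 250 bases before to 50 bases after the start site of each gene. Myc, Wdr43 and Bop1 were not searched. CACGTG reads the same on both strands, so each match counts once. It occurred in 13 of the 37 windows (35.1%), in 9.27% of 9059 promoters of tested genes matched by symbol, and in 6.42% of all 33469 promoters in the table. With only the bases before the start site, 8 of the 37 members held it (21.6%), beside 8.04% of the promoters of tested genes and 5.59% of all. All 8 are members that rose, as are 32 of the 37 searched members. Rrp12 and Nop2, 2 more that rose, held it only after the start site. Over the whole window 10 of the 32 that rose held it (31.25%), beside 3 of the 4 that fell or did not pass (75%). Of the 4 matched members that fell or did not pass, Fbl, Nat10 and Tsr1 held it after the start site and Nop10 held none. Mybbp1a and Utp18 each had a second E-box, at the start site and after it. A match is a description of the sequence and does not show that MYC bound there. Many members that rose, among them Ubtf, Ncl, Nolc1 and Nop56, held no CACGTG in this window.

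The 60 bases directly before the start site are shown for the 4 members that rose and that held the E-box in this stretch, because these are the members where it lies nearest upstream of the start. They are given 5′ to 3′ along the strand of the gene, with the E-box in capitals. It begins 25 bases before the start site in Gnl3 (GRCr8 chr16:6219783-6219842, minus strand) and in Utp4 (chr19:51702181-51702240, plus strand), 50 bases before it in Pes1 (chr14:83074286-83074345, plus strand) and 16 bases before it in Rrp1 (chr20:10260520-10260579, plus strand).
Gnl3: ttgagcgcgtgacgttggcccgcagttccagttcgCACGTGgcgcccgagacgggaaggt
Utp4: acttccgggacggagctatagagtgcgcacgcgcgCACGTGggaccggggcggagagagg
Pes1: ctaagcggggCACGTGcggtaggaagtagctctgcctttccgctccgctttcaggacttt
Rrp1: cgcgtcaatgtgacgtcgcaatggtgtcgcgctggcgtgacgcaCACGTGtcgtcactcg
Among these 4 the log2 fold changes ran from 0.22 in Rrp1 through 0.65 in Pes1 and 0.92 in Utp4 to 1.52 in Gnl3. In the remaining members with an upstream E-box it began 90 bases (Utp18), 127 bases (Utp20), 156 bases (Mybbp1a) and 160 bases (Wdr75) before the start site.

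The 3 subunit genes of RNA polymerase I rose 1.17-fold to 1.33-fold, and Ubtf, the gene of its architectural factor UBF, rose 2.48-fold. UBF binds along the ribosomal RNA genes and keeps them open for transcription. Ubtf had 359.6, 351 and 365 CPM in the CSE libraries, against 142, 143 and 149 CPM in the control libraries, with no overlap. Its log2 fold change was 1.31 ± 0.05 (SE, edgeR adjusted p = 6.0e-14). Polr1a, the gene of the largest subunit of the polymerase, had 54.7, 52.4 and 50.2 CPM with CSE, against 37.4, 41.5 and 47.6 CPM in the control. It rose 1.24-fold (edgeR adjusted p = 0.0013), with groups that stood apart by less than the spread within the control. Polr1b, the gene of the second-largest subunit, rose 1.33-fold (edgeR adjusted p = 1.9e-04). Polr1c, whose protein is shared with RNA polymerase III, averaged 26.2 ± 1.67 CPM with CSE, against 22.4 ± 1.90 CPM in the control (SD, n = 3 each), with overlapping groups, and its rise of 1.17-fold was called at an edgeR adjusted p of 0.0174.

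The calls of 2 of these genes depended on the scaling or on single libraries. Under total counts alone the log2 fold changes were 0.12 for Polr1a (edgeR adjusted p = 0.146) and 0.040 for Polr1c (edgeR adjusted p = 0.667), and Polr1c was not called under upper-quartile scaling either (0.092, edgeR adjusted p = 0.328). The call of Polr1c also ended without CSE replicate 1, CSE replicate 2, control replicate 1 or control replicate 2 (edgeR adjusted p = 0.0555, 0.058, 0.0731 and 0.0785). Within each library the ratio of polymerase subunit to Ubtf counts is free of scaling. The log2 ratio of Polr1a to Ubtf was −2.77 ± 0.08 with CSE and −1.79 ± 0.14 in the control, that of Polr1b to Ubtf −3.92 ± 0.08 with CSE and −3.02 ± 0.13 in the control, and that of Polr1c to Ubtf −3.77 ± 0.12 with CSE, against −2.70 ± 0.08 in the control (SD, n = 3 each). The groups did not overlap in any of the 3 ratios, each with an exact 2-sided permutation p of 0.1, the smallest that 3 libraries against 3 allow. These ratios are among 9 pairs chosen after the values were seen (exact permutation p adjusted over the 9 pairs = 0.113 for each).

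Among the other 12 genes of RNA polymerase I transcription, all tested, 6 rose, none fell and 6 missed the threshold (median log2 fold change 0.26). Of all tested genes, 36.3% were called higher and 37.5% lower. The largest named rises were in Taf1a and Taf1c, genes of the promoter selectivity factor, which recruits the polymerase to the ribosomal RNA promoter. Taf1b and Taf1d of the same factor missed the threshold (log2 fold change 0.25 and 0.064, edgeR adjusted p = 0.062 and 0.496). Taf1a had 24.9 ± 1.18 CPM with CSE and 9.46 ± 0.577 CPM in the control, and Taf1c had 43.7 ± 2.72 CPM with CSE and 19.2 ± 1.56 CPM in the control (both at an edgeR adjusted p of 2.3e-10). Under upper-quartile scaling 1 gene of this list was called lower, and under total counts alone 2 were. These scalings called 5990 and 6319 of all 13390 tested genes lower, against 5027 in the main fit.

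All 6 nucleolar chaperones and regulators rose, beside 36.3% of all tested genes called higher. Gnl3 encodes nucleostemin, a nucleolar GTPase first known from stem cells, and had 185, 196 and 198 CPM in the CSE libraries, against 71.4, 65.4 and 65.7 CPM in the control libraries. It rose 2.86-fold, with a log2 fold change of 1.52 ± 0.05 (SE, edgeR adjusted p = 6.3e-14), and is the member with the largest rise after Myc. Gnl3 overlaps Pbrm1, a chromatin remodeller gene, in the RefSeq table, and Pbrm1 had 116 ± 8.59 CPM with CSE and 128 ± 3.91 CPM in the control. Nolc1, whose protein binds snoRNPs and shuttles between nucleolus and cytoplasm, had 201, 200.0 and 216 CPM with CSE, against 109, 103 and 106 CPM in the control. Its rise was 1.95-fold, with groups clearly apart.

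Npm1 and Ncl, the members with the most reads, rose by similar factors. Npm1, the gene of the histone and ribosomal protein chaperone nucleophosmin, had 870.4, 889.6 and 874 CPM with CSE, against 676, 582 and 576 CPM in the control. Ncl, the gene of nucleolin, had 606, 607 and 602 CPM with CSE, against 429, 401 and 425 CPM in the control. Their rises were 1.44-fold and 1.45-fold, and no CSE library overlapped a control library. The RefSeq table of GRCr8 lists 20 pseudogenes named for Npm1, 16 for Nip7, 9 for Ddx21, 7 for Fbl, 6 for Pes1, 5 each for Ncl and Nhp2, and at most 4 for any other member. The levels of these genes are uncertain to the extent that reads of such copies were counted with them, which was not tested. Ddx21, an RNA helicase gene that couples polymerase I transcription to processing, rose 1.57-fold, and Mybbp1a, the gene of a nucleolar protein that binds MYB, rose 1.48-fold. The edgeR adjusted p of the 6 genes was at most 1.3e-07, the value of Npm1.

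**Figure D2:**
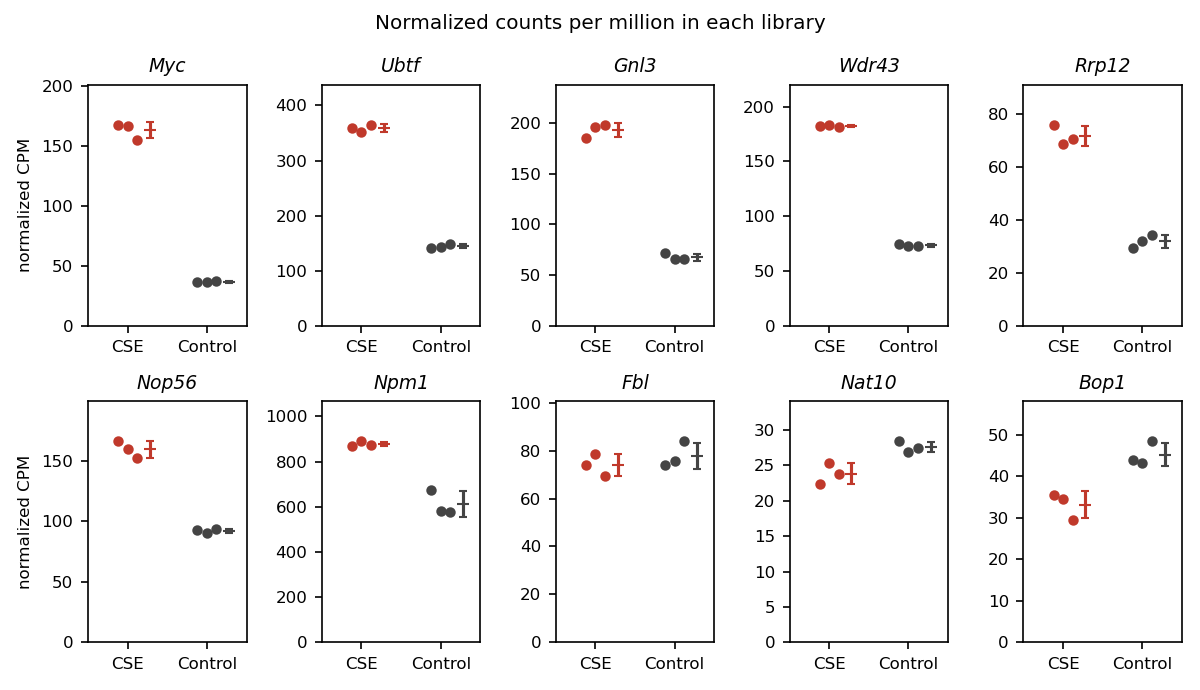
TMM-normalized CPM of 10 members in each library (points), with mean and SD beside them (n = 3), CSE libraries in red and control libraries in grey, each panel on its own linear axis from 0. The groups stand apart in every panel except that of Fbl, with CSE higher in the first 7 panels and lower in those of Nat10 and Bop1.

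The 3 core proteins of box C/D snoRNPs, which carry out methylation of ribosomal RNA, did not move together. Nop56 had 166, 160.3 and 152 CPM with CSE, against 93.0, 90.4 and 93.8 CPM in the control, and rose 1.73-fold (edgeR adjusted p = 2.2e-10). Nop58 had 213, 215 and 223 CPM with CSE, against 146, 144 and 136 CPM in the control, and rose 1.53-fold (edgeR adjusted p = 3.0e-09). Both paralogous scaffold genes were thus higher in every CSE library. Fbl, the gene of the methyltransferase fibrillarin, had 74.1, 78.6 and 69.4 CPM with CSE, against 73.8, 75.8 and 83.9 CPM in the control. Its groups overlapped, and its log2 fold change of −0.074 had a 95% interval of −0.21 to 0.058 (edgeR adjusted p = 0.297). Fbl was called lower with upper-quartile scaling and with total counts alone (−0.21 and −0.26, edgeR adjusted p = 0.0069 and 0.0012).

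Ratios within a library do not depend on the scaling. The log2 ratio of Fbl to Nop56 was −1.11 ± 0.07 with CSE and −0.25 ± 0.09 in the control, and that of Fbl to Nop58 was −1.56 ± 0.12 with CSE, against −0.87 ± 0.15 in the control (SD, n = 3 each). Both had groups that did not overlap and an exact permutation p of 0.1. Nop56 overlaps the gene Idh3b in the RefSeq table, and the part of shared reads was not tested. The ratio of Nop58 to Nop56 was 0.45 ± 0.10 with CSE, against 0.62 ± 0.07 in the control, and its groups overlapped (exact permutation p = 0.2).

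Among the box H/ACA genes, whose snoRNPs turn uridine into pseudouridine, the 2 tested members were nearly level. Dkc1, a core gene of these snoRNPs outside the members, had no count in any library. Gar1 had 32.8, 38.1 and 37.2 CPM with CSE, against 31.8, 33.0 and 29.3 CPM in the control, with overlapping groups. Its rise of 1.15-fold was called (edgeR adjusted p = 0.0227), but the call ended under upper-quartile scaling (0.063, edgeR adjusted p = 0.456), under total counts alone (0.011, edgeR adjusted p = 0.905), and without CSE replicate 2, CSE replicate 3 or control replicate 3 (edgeR adjusted p = 0.0908, 0.0667 and 0.13). Nop10 had 54.0, 52.6 and 51.5 CPM with CSE, against 49.7, 46.6 and 49.8 CPM in the control. Every CSE library lay above every control library, yet the log2 fold change of 0.12, with a 95% interval of −0.006 to 0.24, did not pass (edgeR adjusted p = 0.0789), and it turned to −0.021 under upper-quartile scaling and −0.073 under total counts alone. Nhp2 was below the filter, with 10, 5 and 10 counts with CSE and 7, 8 and 7 counts in the control, so no difference was tested. The reason for its low counts was not tested either.

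Of 9 further genes of snoRNPs and their assembly 8 were tested, of which 3 rose, 3 fell and 2 missed the threshold (median log2 fold change 0.033), shares near those of all tested genes, of which 36.3% were called higher and 37.5% lower. Snu13, a shared component of box C/D snoRNPs and the spliceosome, rose 0.51 ± 0.09 on the log2 scale, and the assembly factor gene Nufip1 rose 0.27 ± 0.07. Pih1d1 and Rpap3, genes of the R2TP complex that loads snoRNP proteins, fell by 0.37 and 0.26. The edgeR adjusted p of these 4 was at most 0.0073. The call of Nufip1 ended under upper-quartile scaling (edgeR adjusted p = 0.0721) and total counts alone (edgeR adjusted p = 0.253). Under total counts alone 1 gene of this list was called higher, beside 28.0% of all tested genes.

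The small-subunit processome, the large particle that folds and cuts the start of the precursor, was mostly higher. Of its 13 members 12 were called higher and 1 lower, beside 36.3% and 37.5% of all tested genes. The median log2 fold change was 0.72, with a range of −0.21 to 1.31. The UTP-A subcomplex of the processome binds the growing transcript first. Wdr43, a UTP-A gene, had 182, 183 and 181 CPM with CSE, against 74.9, 73.1 and 72.6 CPM in the control, and rose 2.48-fold (log2 fold change 1.31 ± 0.05 SE, edgeR adjusted p = 9.8e-14). The difference was many times the spread within either group. Its partners Utp15, Utp4 and Wdr75 rose 1.95-fold, 1.90-fold and 1.65-fold (edgeR adjusted p at most 6.5e-10). Nol11, a UTP-A gene outside the members, rose 1.12-fold (edgeR adjusted p = 0.0265). Heatr1, another UTP-A member, had few counts, with 62, 63 and 80 with CSE and 44, 25 and 53 in the control. Its rise of 1.60-fold (edgeR adjusted p = 0.0234) had a wide 95% interval on the log2 scale, 0.14 to 1.21, and the call ended under upper-quartile scaling (edgeR adjusted p = 0.0638), total counts alone (edgeR adjusted p = 0.0894), and without CSE replicate 3 or control replicate 2 (edgeR adjusted p = 0.107 and 0.133).

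The members of the UTP-B subcomplex, which joins next, differed in the size of their rise. Outside the members, the UTP-B genes Tbl3 and Utp6 rose (log2 fold change 0.79 and 0.465), and Pwp2 was not called (−0.0145, edgeR adjusted p = 0.845). Wdr3 had 77.8, 82.7 and 84.5 CPM with CSE, against 40.01, 42.2 and 38.7 CPM in the control, and rose 2.03-fold (edgeR adjusted p = 5.2e-11). Utp18 had 42.1, 49.5 and 54.8 CPM with CSE, against 25.8, 29.9 and 28.3 CPM in the control, and rose 1.74-fold (edgeR adjusted p = 2.4e-07) with a wide spread among the CSE libraries. Utp18 overlaps Mbtd1, which rose as well, to 51.6 ± 1.28 CPM with CSE, against 25.2 ± 1.69 CPM in the control, and the part of shared reads was not tested. Wdr36 had 65.8, 69.1 and 62.9 CPM with CSE, against 62.3, 60.3 and 56.9 CPM in the control. Its groups stood apart by a narrow gap, and its rise of 1.10-fold (edgeR adjusted p = 0.0379) lost its call under upper-quartile scaling (0.004, edgeR adjusted p = 0.951), turned to −0.047 under total counts alone (edgeR adjusted p = 0.482), and was lost without low-count filtering (edgeR adjusted p = 0.0653) and without CSE replicate 1, CSE replicate 2, control replicate 2 or control replicate 3 (edgeR adjusted p = 0.0563, 0.135, 0.0909 and 0.197).

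Among the remaining processome genes, Rrp9, whose protein binds the U3 small nucleolar RNA, had 67.7, 62.2 and 63.4 CPM with CSE, against 35.1, 29.9 and 33.6 CPM in the control, and rose 1.96-fold (edgeR adjusted p = 6.0e-10). Rrp9 overlaps Parp3, which fell to 68.0 ± 5.56 CPM with CSE, against 104.5 ± 5.78 CPM in the control. The scaffold genes Utp20 and Nop14 rose 1.45-fold and 1.40-fold (edgeR adjusted p = 5.1e-08 and 1.1e-06). Bms1, the gene of a GTPase of the particle, rose 1.21-fold (edgeR adjusted p = 7.7e-04), a call that ended under upper-quartile scaling (0.14, edgeR adjusted p = 0.0564) and total counts alone (0.087, edgeR adjusted p = 0.232).

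Nat10, the gene of the acetyltransferase that modifies cytidines of the small-subunit RNA, was the processome member called lower. It had 22.4, 25.3 and 23.9 CPM with CSE, against 28.4, 26.9 and 27.5 CPM in the control, with every CSE library below every control library. The log2 fold change was −0.21 ± 0.07 (SE, edgeR adjusted p = 0.0135). The call ended with DESeq2 (adjusted p = 0.0628) and without CSE replicate 1 (−0.16, edgeR adjusted p = 0.0749), which leaves Bop1 as the one member called lower.

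The late factors of the small subunit act on the particle on its way to the cytoplasm and there. Rrp12, an export factor gene, had 76.0, 68.7 and 70.7 CPM with CSE, against 29.5, 32.0 and 34.5 CPM in the control, and rose 2.24-fold (log2 fold change 1.17 ± 0.07 SE, edgeR adjusted p = 5.0e-11). Nob1, the gene of the endonuclease that makes the final cut, had 73.3, 69.7 and 73.6 CPM with CSE, against 52.3, 48.6 and 51.9 CPM in the control, and rose 1.42-fold (edgeR adjusted p = 3.0e-07). Neither gene had overlapping groups. Tsr1, the gene of an assembly factor that blocks early translation by the new subunit, had 89.9, 93.4 and 88.7 CPM with CSE, against 96.0, 92.4 and 94.5 CPM in the control. Its groups overlapped and its log2 fold change of −0.057, with a 95% interval of −0.16 to 0.049, did not pass (edgeR adjusted p = 0.314), but it was called lower under upper-quartile scaling (−0.19, edgeR adjusted p = 0.0022) and total counts alone (−0.25, edgeR adjusted p = 3.0e-04).

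Of the 7 large-subunit members 6 rose and 1 fell, beside 36.3% of all tested genes called higher and 37.5% called lower. The fall was in the PeBoW complex. Pes1, Bop1 and Wdr12 encode this complex, whose proteins depend on each other in making the large subunit. Pes1 had 114, 105 and 108 CPM with CSE, against 72.7, 61.7 and 74.3 CPM in the control, and rose 1.57-fold (edgeR adjusted p = 8.5e-08). Wdr12 had 66.7, 65.1 and 65.4 CPM with CSE, against 38.5, 35.2 and 37.1 CPM in the control, and rose 1.78-fold (edgeR adjusted p = 6.5e-10). Bop1 went the other way in every library, with 35.5, 34.7 and 29.5 CPM with CSE, against 43.9, 43.3 and 48.5 CPM in the control. It had a log2 fold change of −0.45 ± 0.08 (SE, edgeR adjusted p = 4.1e-05), which lay between −0.63 and −0.36 over the 13 alternatives and was called in each.

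The log2 ratio of Bop1 to Pes1 was −1.72 ± 0.14 with CSE and −0.62 ± 0.11 in the control, and that of Bop1 to Wdr12 was −0.99 ± 0.14 with CSE, against 0.29 ± 0.10 in the control (SD, n = 3 each, exact permutation p = 0.1 for both). The ratio of Wdr12 to Pes1 moved by less, at −0.73 ± 0.04 with CSE, against −0.91 ± 0.10 in the control (exact permutation p = 0.1). In the RefSeq table Bop1 overlaps Mroh1 and Scx, the gene of the tendon transcription factor scleraxis. Scx fell to 11.7 ± 1.14 CPM with CSE, against 31.0 ± 4.06 CPM in the control (log2 fold change −1.40 ± 0.10, edgeR adjusted p = 1.4e-09), and Mroh1 fell to 5.14 ± 0.726 CPM, against 7.43 ± 0.940 CPM (edgeR adjusted p = 0.0042). Wdr12 overlaps Carf, which had 13.8 ± 1.76 CPM with CSE and 13.8 ± 0.787 CPM in the control. Because no strand setting is given, the reads of overlapping genes cannot be told apart, and the part of Scx reads in the fall of Bop1 was not tested.

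**Figure D3:**
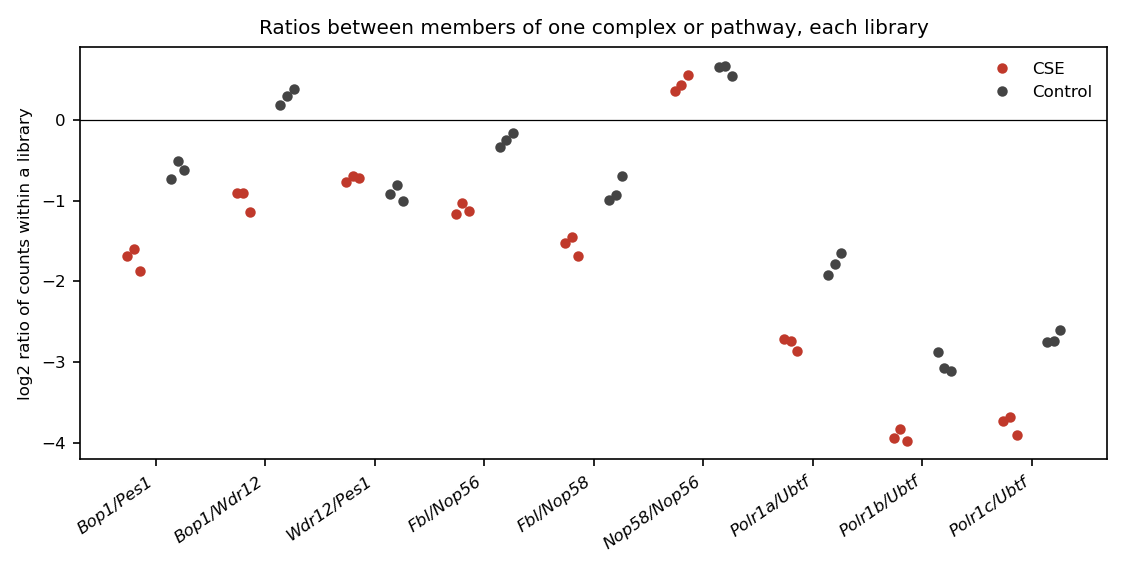
Log2 ratio of the raw counts of 2 members within each library, CSE libraries in red left of control libraries in grey. The Bop1 to Pes1, Bop1 to Wdr12, both Fbl ratios and the 3 ratios to Ubtf stand lower in every CSE library, Wdr12 to Pes1 stands higher, and Nop58 to Nop56 overlaps.

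The other 4 large-subunit members rose 1.16-fold to 1.59-fold. Nip7, the gene of an early processing factor, rose 1.59-fold, Nop2, the gene of a methyltransferase of the large-subunit RNA, rose 1.55-fold, and Nop16 rose 1.46-fold (edgeR adjusted p at most 5.5e-07). Nip7 had 31.5, 36.1 and 35.1 CPM with CSE, against 20.8, 23.3 and 20.6 CPM in the control. Nop2 had 75.6, 71.3 and 69.8 CPM with CSE, against 45.5, 46.1 and 47.9 CPM in the control. Neither had overlapping groups. Rrp1 averaged 46.6 ± 1.70 CPM with CSE and 40.01 ± 4.28 CPM in the control and rose 1.16-fold (edgeR adjusted p = 0.0121), a call that ended under upper-quartile scaling (0.083, edgeR adjusted p = 0.321), total counts alone (0.032, edgeR adjusted p = 0.7) and without control replicate 2 (0.13, edgeR adjusted p = 0.117).

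Further factors of both subunits were listed from general knowledge of the pathway, with earlier results of these data known. They were mostly higher too, with 69.4% of the large-subunit and 70.3% of the small-subunit factors called higher, beside 36.3% of all tested genes. Of 49 other large-subunit factors tested, 34 rose, 5 fell and 10 missed the threshold (median log2 fold change 0.51). Nmd3, the gene of the export adaptor of the large subunit, rose to 111 ± 0.940 CPM with CSE, against 47.0 ± 3.41 CPM in the control, and Cebpz rose to 133 ± 1.40 CPM, against 66.9 ± 3.93 CPM. Senp3, the gene of a SUMO protease of this pathway, fell by 0.54, and the helicase gene Ddx51 fell by 0.94 on the log2 scale. The edgeR adjusted p of these 4 genes was at most 2.2e-07. The lower calls of this list numbered 3 without CSE replicate 3 and 8 under total counts alone. Of all tested genes, 4801 of 13631 and 6319 of 13390 were called lower in these fits, against 5027 of 13390 in the main fit.

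Of 38 other small-subunit factors 37 were tested, and 26 rose, 4 fell and 7 missed the threshold (median log2 fold change 0.35). Tbl3, a UTP-B gene, rose 0.79 ± 0.06 and Nol6 rose 0.68 ± 0.05 on the log2 scale. The methyltransferase gene Emg1 fell by 0.69 and Imp3, whose protein belongs to the U3 particle, fell by 0.83 (edgeR adjusted p of the 4 genes at most 6.7e-05). The lower calls numbered 9 under upper-quartile scaling and 10 under total counts alone, and 2 without CSE replicate 2 or CSE replicate 3. Over all 13390 tested genes, 5990 and 6319 were called lower under these scalings, against 5027 in the main fit. Without those libraries 4843 of 13634 and 4801 of 13631 tested genes were called lower.

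The RNA exosome, which trims ribosomal RNA precursors from the 3′ end, was mostly lower or not called. Of its 13 genes 1 rose, 7 fell and 5 missed the threshold (median log2 fold change −0.18). Among all tested genes 36.3% were called higher and 37.5% lower. Exosc6 was the gene that rose, with 51.2, 46.5 and 53.9 CPM with CSE, against 9.89, 9.48 and 9.93 CPM in the control (log2 fold change 2.37 ± 0.08 SE, edgeR adjusted p = 3.8e-14). Exosc9 fell by 1.03 and Exosc2 by 0.74 (edgeR adjusted p at most 2.8e-07). Without control replicate 1, 2 genes of this list were called higher.

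MYC targets outside ribosome production were mixed. Of 21 tested, 12 rose, 5 fell and 4 missed the threshold (median log2 fold change 0.21), beside 36.3% higher and 37.5% lower over all tested genes. Hspd1, the gene of the mitochondrial chaperonin, which is also induced by heat shock, rose to 738 ± 31.3 CPM with CSE, against 268 ± 14.2 CPM in the control. Odc1, the gene of the first enzyme of polyamine synthesis, rose to 318 ± 10.3 CPM with CSE, against 161 ± 2.84 CPM in the control. The cyclin gene Ccnd2 fell to 52.2 ± 0.897 CPM with CSE, against 90.6 ± 1.46 CPM in the control, and the CTP synthase gene Ctps1 fell to 143 ± 2.54 CPM, against 195 ± 7.22 CPM (edgeR adjusted p of the 4 genes at most 1.6e-07). The higher calls of this list numbered 6 under upper-quartile scaling, and 5, with 8 lower, under total counts alone. Under these scalings 30.2% and 28.0% of all tested genes were called higher, and under total counts alone 6319 of 13390 were called lower.

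**Figure D4:**
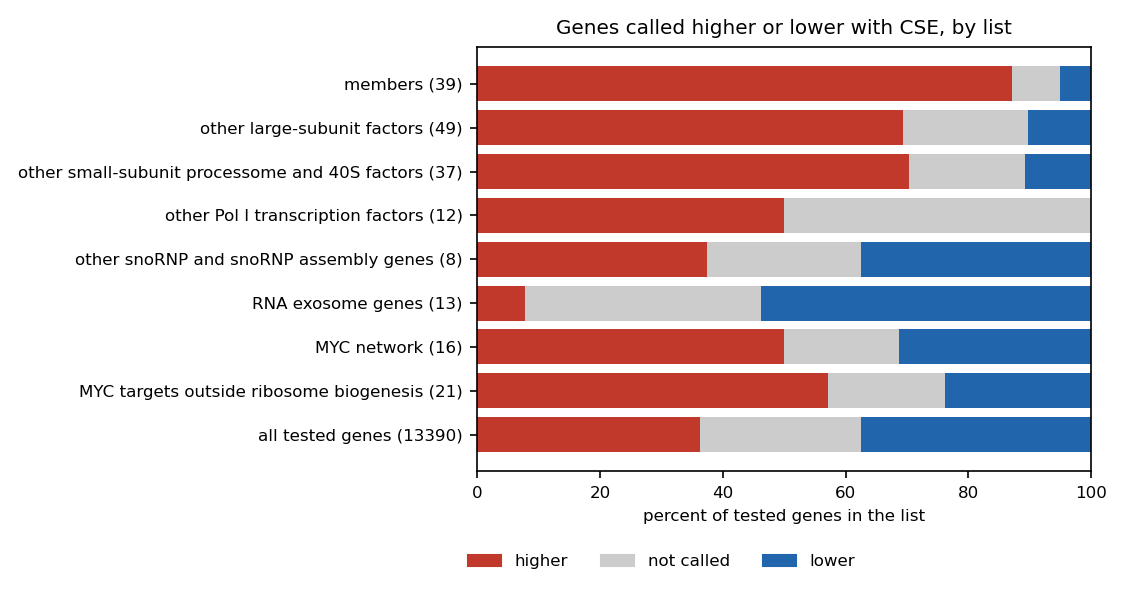
Percent of tested genes called higher (red), not called (grey) or called lower (blue) with CSE against control, for the members, the other lists (number tested in parentheses) and all tested genes. The members have 87.2% called higher and all tested genes 36.3%, and RNA exosome genes have 7.7% called higher.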

How the data were processed

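The deposited table holds raw read counts per gene symbol for 6 libraries, 1 column each, matched to samples by name. HISAT2 2.0.4 and the build Rnor_6.0 appear in the submitters' processing notes, with no role for either. No source used here gives the counting tool, the strand setting or the annotation. Of the 40 members, 14 overlap another gene in the RefSeq table of GRCr8 (small RNA genes left out), so their reads may be shared. Utp4 (with Chtf8 and Derpc), Tsr1 (with Srr) and Wdr3 (with Spag17) are among them.

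Genes were filtered with filterByExpr and tested with glmQLFTest of edgeR 4.0.16 (R 4.3.3, TMM scaling, 2-sided, Benjamini-Hochberg adjustment over 13390 genes, threshold 0.05). Library sizes were whole column totals. The standard error is the size of the log2 fold change divided by the square root of F, and 95% intervals use the fit's degrees of freedom. DESeq2 1.42.0 and limma-voom 3.58.1 served as alternatives. The fit was tested on simulated counts. The 40 members and all lists were chosen with earlier results of these data known. Named genes are all members, Max, and per other list the 2 called genes with the smallest adjusted p in each direction. Genes overlapping a member and the 9 ratios were named after their values were seen. So were Mxd1, Mxi1, Taf1b, Taf1d, Utp6, Pwp2, Nol11 and Dkc1, which belong to a family or complex described above. Ratios were tested by exact 2-sided permutation. Chi-square per degree of freedom between libraries of a group lay between 3.24 and 5.74, so no pair agreed within sampling noise. 1 gene of the blood cell marker list is not reported here.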

Additional observations from a re-analysis of the deposited data

How the results depend on the processing

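The 13 alternatives for the fit were 3 other scalings, no filter on low counts, DESeq2, limma-voom, a replicate block and 6 fits without 1 library each. In all 13, 27 of the 34 members that rose were called higher, with log2 fold changes of at least 0.22. The other 7 were Polr1a, Polr1c, Gar1, Heatr1, Wdr36, Bms1 and Rrp1. The cause of changed calls was not tested.

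With RLE size factors 2 box H/ACA genes were called higher, since Nop10 passed. Under upper-quartile scaling the members' median log2 fold change was 0.48 and under total counts alone 0.42. Members called lower numbered 4 under each of these, with 1 box C/D gene (Fbl) and 1 late small-subunit gene (Tsr1) lower and 0 box H/ACA genes higher. Of all 13390 tested genes 5990 and 6319 were called lower under these scalings, against 5027 in the main fit. Under total counts alone 2 of the 4 polymerase I members were higher. The sign turned for Nop10 (−0.021) and Max (−0.082) under upper-quartile scaling, and for Nop10 (−0.073), Wdr36 (−0.047) and Max (−0.13) under total counts alone.

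In the other lists, upper-quartile scaling gave 1 polymerase I gene lower, 9 small-subunit genes lower and 6 MYC targets higher. Total counts alone gave 2 polymerase I genes, 10 small-subunit genes and 8 large-subunit genes lower, 1 snoRNP gene higher, and 5 MYC targets higher with 8 lower. Of all 13390 tested genes, upper-quartile scaling called 30.2% higher and 5990 lower, and total counts alone called 28.0% higher and 6319 lower. With DESeq2, 1 member was called lower and 0 of the processome. The E-box count was 13 members over the whole window and 8 with the upstream part alone.

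Without 1 library each, members called higher ranged from 30 to 33 and lower from 1 to 2, and the members' median from 0.53 to 0.63. Box H/ACA genes called higher ranged from 0 to 1 and processome members called lower from 0 to 1. In the other lists, lower calls ranged from 2 to 4 for small-subunit and from 3 to 5 for large-subunit factors, and higher calls from 1 to 2 for the exosome.

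With the replicate number as a block, 33 members were called higher and 2 lower, and 4821 genes in all higher and 4935 lower. Same-numbered libraries had correlations of deviations of 0.02, −0.027 and 0.001, so the numbers gave no sign of pairing. Of the members' calls the block ended 1, that of Wdr36 (0.14, adjusted p = 0.0522).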
